A study of Mus musculus with 2 samples.

Results

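The genes described here encode Janus kinases and the STAT transcription factors that they activate. They are 9 genes, namely Jak1, Jak2, Tyk2, Stat2, Stat3, Stat4, Stat5a, Stat5b and Stat6, taken by name from the 18193 genes that have a probe set of their own in the annotation of the platform, an Affymetrix mouse genome array. They are read by 20 of the 45037 probe sets that are not array controls. The series holds 1 array of macrophages treated with lipopolysaccharide (LPS), the outer membrane component of Gram-negative bacteria, and 1 array of untreated control macrophages. Both were grown from bone marrow of C57BL6 mice in RPMI medium with fetal bovine serum and macrophage colony-stimulating factor (M-CSF), so the control cells carry that cytokine stimulus too. The sources used here do not give the LPS dose, the duration of treatment, the age and sex of the mice or any pooling of animals. With 1 array per condition there is no replicate error and no test, and each difference below describes these 2 arrays.

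Janus kinases sit on the inner tails of cytokine receptors that have no kinase of their own. When a cytokine brings the receptor chains together, the kinases phosphorylate the receptor and then the STAT proteins that dock on it, which pair, enter the nucleus and bind DNA. LPS is sensed by Toll-like receptor 4, which uses no Janus kinase, but treated macrophages secrete interferons, interleukins and growth factors that act back on the same cells through this pathway.

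Of the 9 genes, 4 exceeded control by 2-fold or more on the LPS array (Jak2, Stat5a, Stat2 and Stat3), 1 was below control by 2-fold or more (Stat6), and Stat4, Tyk2, Jak1 and Stat5b lay within 2-fold. Each gene is represented by its brightest probe set, and all 9 reached the floor (the median signal of the array in question) on both arrays. Among the 11722 measured genes, 8.22% were past 2-fold on the higher side and 26.2% on the lower side. The median log2 ratio (LPS over control) of the 9 genes was 0.93, against -0.42 over all measured genes. When every ratio was taken relative to that array-wide median, 7 of the 9 genes were past 2-fold on the higher side and 0 on the lower side, beside 13.1% and 15.3% of all measured genes. The 3 genes added by this centring were Stat4, Tyk2 and Jak1, and Stat6 then stood at -0.87. The order of the ratios does not depend on centring: counted from the highest of the 11722, Jak2 ranked 123, Stat5a 320, Stat2 354, Stat3 454, Stat4 1032, Tyk2 1175, Jak1 1229 and Stat5b 2209, while Stat6 ranked 2120 from the lowest.

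**Figure D1:**
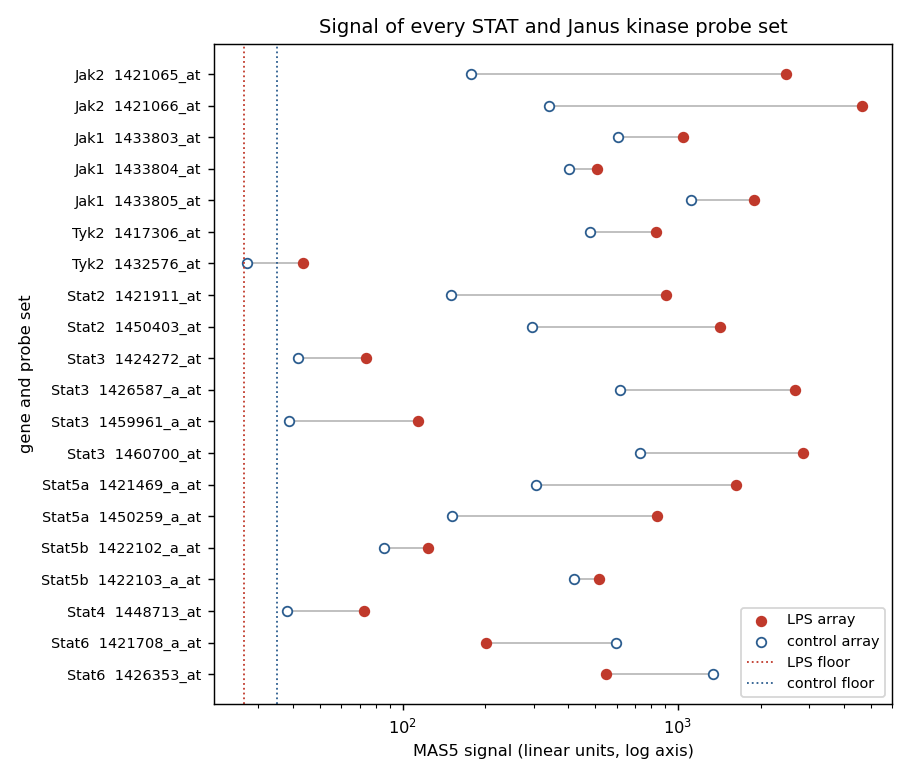
MAS5 signal (log axis) of each of the 20 probe sets, with the LPS array as filled points, the control array as open points and each array's floor as a dotted line. The LPS point lies to the right of the control point for 18 probe sets and to the left for both Stat6 probe sets, and Stat4 and the dimmer Stat3 and Tyk2 probe sets lie near the floors.

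The floors were 26.7 signal units on the LPS array and 35.1 on the control array. The array-wide shift depended on brightness, with median log2 ratios of -0.61 for genes whose mean log2 signal was 7 to 9, -0.23 for 9 to 11 and -0.08 for 11 to 14. The 18 hybridization controls had a median of -0.05 and the 24 poly-A controls one of -0.29. Macrophage markers were present in both samples: 10 of 11 were at or above the floor on the LPS array and 11 of 11 on the control array, with summed signals of 63284 and 56945. Cd14 (10273 on the LPS array and 3965 on the control array) and Fcgr1 (6107 and 1519) were past 2-fold higher. Cd163, under the LPS floor, was past 2-fold lower, and 8 lay within 2-fold. The median log2 ratio of the 11 was -0.10. Because the RNA is from a whole culture, fewer cells of a type and less RNA per cell cannot be told apart. Signals of different probe sets are not on a common scale, so the genes were ordered by their ratios and not by their levels.

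Jak2 differed most among the kinases. It encodes the Janus kinase used by the receptors for GM-CSF, interleukin-3 and interferon gamma, and with TYK2 by the interleukin-12 receptor. Its probe set 1421066_at had a signal of 4638 on the LPS array and 341 on the control array, 13.6-fold higher, and 1421065_at had 2473 and 177. Both probe sets therefore gave nearly the same log2 ratio, 3.76 and 3.81. Its promoter window is shown because it belongs to the gene with the largest difference of the 9. In the RefSeq promoter table (build GRCm38.p6), which gives 250 bases before to 50 after a start, it lies at chr19:29251553-29251852 on the + strand.
Jak2: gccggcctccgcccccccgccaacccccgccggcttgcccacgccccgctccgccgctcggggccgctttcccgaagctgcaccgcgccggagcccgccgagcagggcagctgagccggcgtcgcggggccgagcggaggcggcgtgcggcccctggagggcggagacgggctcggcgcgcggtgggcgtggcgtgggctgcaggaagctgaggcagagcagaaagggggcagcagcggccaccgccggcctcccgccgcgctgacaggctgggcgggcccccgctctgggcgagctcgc
It is 81.0% G and C. It holds no exact match, on either strand, to any of the 3 motifs searched in every window: the gamma-activated sequence (GAS, TTCNNNGAA) that STAT dimers bind, the core of the interferon-stimulated response element (ISRE, read as GAAA, any 2 bases, GAAA) that the STAT2-containing complex binds, and the kappaB site of NF-kB. Of all 32851 promoter windows of this length, 8.3% hold the GAS letters, 3.44% the ISRE core and 8.46% the kappaB letters.

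Jak1 and Tyk2, which together serve the type I interferon receptor and the interleukin-10 receptor, differed less. Jak1 had signals of 1891 on the LPS array and 1115 on the control array for 1433805_at, 1042 and 607 for 1433803_at, and 508 and 403 for 1433804_at. All 3 probe sets were higher with LPS, by 1.70-fold, 1.72-fold and 1.26-fold. Tyk2 had signals of 832 on the LPS array and 479 on the control array for 1417306_at, 1.74-fold higher, and 43.7 and 27.4 for 1432576_at, where the control signal is under its floor. Relative to the array-wide median, Jak1 stood at a log2 ratio of 1.19 and Tyk2 at 1.22. The remaining Janus kinase gene, Jak3, which pairs with the common gamma chain, was added after its values were seen. It had signals of 174 on the LPS array and 163 on the control array, a log2 ratio of 0.10.

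**Figure D2:**
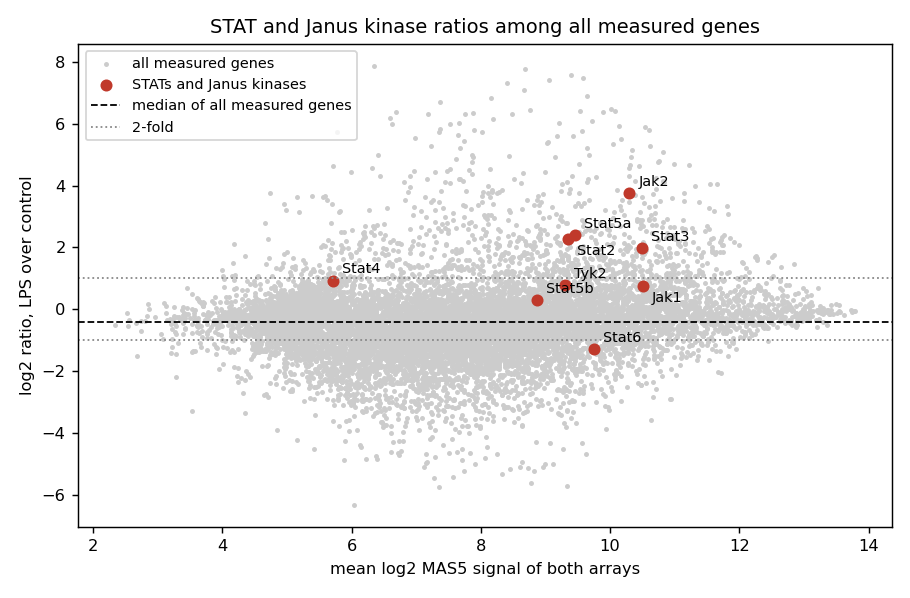
Log2 ratio (LPS over control) against the mean log2 signal of both arrays for the 11722 measured genes (grey) and the 9 STAT and Janus kinase genes (red), with the median of all genes (-0.42, dashed) and 2-fold (dotted). Jak2, at 3.76, lies highest of the 9, Stat6, at -1.29, lies lowest, and the other 8 genes lie above the dashed line.

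Stat2, which acts in the type I interferon response as part of the ISGF3 complex with IRF9, was higher by both of its probe sets. Probe set 1450403_at had a signal of 1424 on the LPS array and 296 on the control array, 4.82-fold higher, and 1421911_at had 907 and 151, 6.02-fold higher. The log2 ratios were 2.27 and 2.59. Stat4, which relays interleukin-12 signals, has 1 probe set, with 72.7 on the LPS array and 38.2 on the control array, a log2 ratio of 0.93. The control signal is close to its floor, and with the floors at the 65th percentile it lies under its floor, where the ratio of -0.32 is only a lower bound and gives no direction. Only these 2 of the 9 genes have a promoter window with the ISRE core, which 3.44% of all promoter windows hold. Both matching windows are shown for this core, with the match in capitals. The Stat2 window lies at chr10:128270248-128270547 and the downstream of the 2 Stat4 windows at chr1:52007990-52008289, both on the + strand.
Stat2: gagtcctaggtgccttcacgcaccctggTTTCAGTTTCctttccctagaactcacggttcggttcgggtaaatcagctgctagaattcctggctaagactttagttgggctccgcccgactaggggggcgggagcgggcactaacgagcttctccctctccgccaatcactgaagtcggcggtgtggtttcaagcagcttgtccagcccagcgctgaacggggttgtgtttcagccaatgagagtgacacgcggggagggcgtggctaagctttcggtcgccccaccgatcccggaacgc
Stat4: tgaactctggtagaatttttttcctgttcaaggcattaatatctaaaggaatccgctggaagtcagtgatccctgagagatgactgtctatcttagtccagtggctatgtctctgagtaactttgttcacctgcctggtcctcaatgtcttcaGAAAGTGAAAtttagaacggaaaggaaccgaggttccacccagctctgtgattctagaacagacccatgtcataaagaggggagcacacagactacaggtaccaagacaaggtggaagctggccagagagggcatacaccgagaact
In Stat2 the match begins 222 bases before the start and reads along the opposite strand, and in Stat4 it begins 97 bases before the start. The upstream Stat4 window holds none of the 3 motifs. A match describes these letters alone, and binding was not measured.

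Markers of T cells and natural killer (NK) cells, from which Stat4 is best known, differed in both directions. Of the 7 NK cell markers with a probe set of their own, 2 were measured, with summed signals of 226 on the LPS array and 52.1 on the control array. Most of the LPS sum was Klrk1 (197 and 17.6, the control signal under its floor). The other marker was Prf1 (29.0 and 34.5, likewise). Ncr1, Gzma, Gzmb, Eomes and Klrd1 were under the floors on both arrays. Of 9 T cell markers, 4 were measured, with summed signals of 412 on the LPS array and 2609.6 on the control array. Most of the control sum was Cd28 (72.0 on the LPS array and 2197 on the control array). Cd8a was at 44.3 on the LPS array and 70.3 on the control array, Zap70 at 218 and 325, and Cd247 at 76.9 and 18.1, the last control signal being under its floor. Cd3d, Cd3e, Cd3g and Cd4 were under the floors on both arrays. Of 7 dendritic cell markers, 3 were measured, with sums of 123 and 86.1, from Ccr7 at 60.5 on the LPS array and 20.0 on the control array and Zbtb46 at 50.1 and 18.5, both under the control floor, and Cd209a at 11.8, under the LPS floor, and 47.6. Their part in the Stat4 result was not tested.

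Stat3, the factor downstream of the interleukin-6 and interleukin-10 receptors, was higher by its bright probe sets. Probe set 1460700_at had 2838 on the LPS array and 725 on the control array, 3.91-fold higher, and 1426587_a_at had 2661 and 614, 4.34-fold higher. The dim ones had smaller ratios: 1459961_a_at had 113 and 38.6, 2.94-fold higher, and 1424272_at had 74.0 and 41.9, 1.77-fold higher. The log2 ratios of the 4 probe sets thus spread from 0.82 to 2.12, an SD of 0.58, beside a median SD of 0.28 over 4494 genes with several probe sets at or above both floors. This SD is across probe sets of 1 pair of arrays and is not a replicate error.

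The paralogues Stat5a and Stat5b, both of which relay GM-CSF and other growth factor signals, differed in their ratios. Stat5a had 1619 on the LPS array and 304 on the control array for 1421469_a_at, and 837 and 152 for 1450259_a_at, which are 5.32-fold and 5.52-fold higher. Stat5b had 516 on the LPS array and 420 on the control array for 1422103_a_at, and 123 and 85.3 for 1422102_a_at, which are 1.23-fold and 1.44-fold higher. The lower Stat5a log2 ratio, 2.41, thus lay well above the higher Stat5b one, 0.53, a gap wider than the spread between the probe sets of either gene. Whether probes of one gene also bind transcripts of the other was not tested. The 2 genes are neighbours on chromosome 11, and a stretch beside one RefSeq start of each is nearly the same in both, which is why the sequences are shown. It lies at chr11:100860418-100860482 on the + strand for Stat5a and at chr11:100822563-100822627 on the - strand for Stat5b (GRCm38.p6), and capitals mark the bases that are identical.
Stat5a: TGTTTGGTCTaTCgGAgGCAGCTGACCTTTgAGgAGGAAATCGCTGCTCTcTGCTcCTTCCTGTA
Stat5b: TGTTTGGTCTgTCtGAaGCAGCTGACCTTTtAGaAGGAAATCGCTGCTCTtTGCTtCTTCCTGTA
Of the 65 aligned bases, 58 were identical (89.2%), with no gap. Upstream of this stretch, the same Stat5a window holds a kappaB match, GGGGCACCCC, that begins 234 bases before the start, while neither Stat5b window holds any of the 3 motifs. No window of the 9 genes, 12 in all, holds the GAS letters. Of all promoter windows, 8.46% hold the kappaB letters and 8.3% the GAS letters. Any link of these matches to the ratios was not tested.

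Stat6, the factor of the interleukin-4 and interleukin-13 response, was the one gene of the 9 that was lower with LPS. Probe set 1426353_at had 549 on the LPS array and 1344 on the control array, 2.45-fold lower, and 1421708_a_at had 200.3 and 596, 2.98-fold lower. The log2 ratios were -1.29 and -1.57, and the value for the brighter probe set was between -1.25 and -0.87 under the 5 other scalings. Its promoter window is shown as that of the only lower gene, at chr10:127642736-127643035 on the + strand, and holds none of the 3 motifs.
Stat6: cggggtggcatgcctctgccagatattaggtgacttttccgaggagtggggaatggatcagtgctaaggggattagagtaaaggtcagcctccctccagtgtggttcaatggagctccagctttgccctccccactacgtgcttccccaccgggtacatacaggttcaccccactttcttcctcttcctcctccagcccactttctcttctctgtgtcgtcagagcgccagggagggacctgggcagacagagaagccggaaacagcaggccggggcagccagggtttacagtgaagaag

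**Figure D3:**
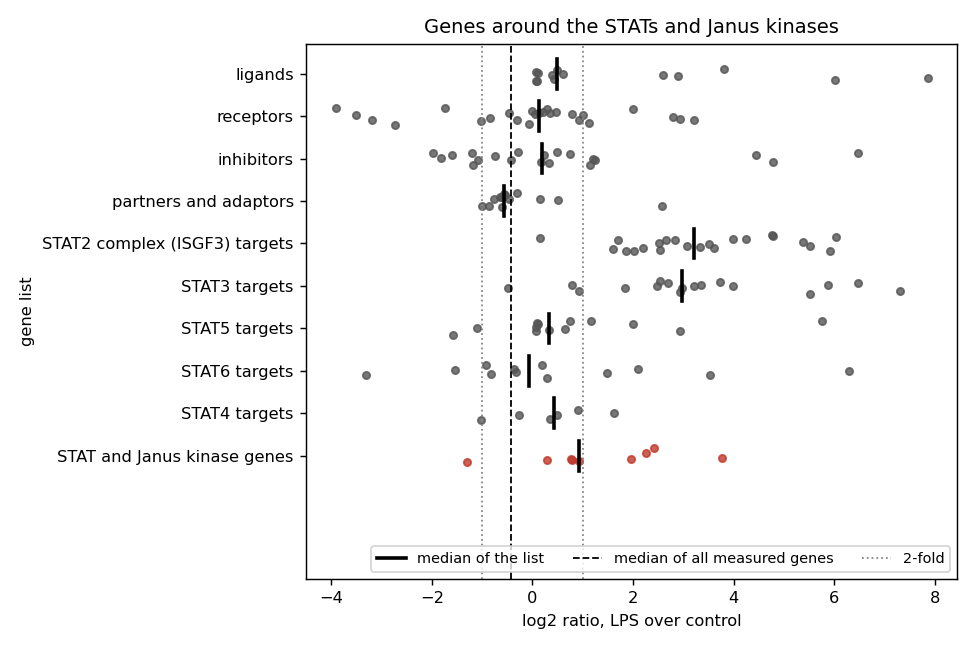
Log2 ratio (LPS over control) of each measured gene (points) in 9 lists around the pathway and in the 9 STAT and Janus kinase genes (red), with each list's median (bar), the median of all measured genes (dashed) and 2-fold (dotted). The lists of STAT2 complex and STAT3 targets have medians of 3.21 and 2.98, while the STAT6 list has one of -0.08 with genes far out on both sides.

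Ligands that act through these kinases were in part far higher on the LPS array. Of 13 measured ligand genes, 5 exceeded control by 2-fold or more and 0 lay below it by that much, and their median log2 ratio was 0.48. Among all measured genes, 8.22% and 26.2% did so. Il15, whose product signals through JAK1, JAK3 and the STAT5 proteins, was at 3936 on the LPS array and 532 on the control array, 7.40-fold higher. Ebi3, a subunit shared by interleukins 27 and 35, was at 5634 and 925, 6.09-fold higher. Il6, Il12b and Il10 were the other 3, with log2 ratios of at least 7.87, at least 6.01 and 3.82. Osm, at 111 on the LPS array and 106 on the control array, and Lif, at 36.9 and 31.9 (the control signal under its floor), had log2 ratios of 0.07 and 0.07. Ifnb1, the only interferon gene measured in this list, was at 37.1 on the LPS array and 29.1 on the control array. That control signal is under its floor, and the log2 ratio was 0.08.

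Receptors of the pathway differed in both directions. Of 25 measured, 5 were past 2-fold on the higher side and 6 on the lower side, around a median of 0.14. Among all measured genes the shares were 8.22% and 26.2%, so the lower count lies near the array-wide share. With median-centred ratios these counts were 8 and 5, beside 13.1% and 15.3% of all measured genes. Among receptors that signal through STAT3 both directions occurred. Il6st, the gp130 gene shared by the interleukin-6 family, was at 87.1 on the LPS array and 577 on the control array, 6.62-fold lower, and its 4 probe sets ranged from -3.86 to -1.25. Il6ra was at 109 and 994, 9.09-fold lower, and Lifr at 11.4 and 401, at least 15.0-fold lower. The interleukin-10 receptor chain Il10ra, which also signals through STAT3, was at 944 on the LPS array and 549 on the control array, a log2 ratio of 0.78. Csf3r, the G-CSF receptor gene, was at 951 and 436, a log2 ratio of 1.12, and Lepr, the leptin receptor gene, at 48.7 and 27.1 (the control signal under its floor), one of 0.47.

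Il4ra and Il13ra1, which encode 2 of the receptor chains that signal to STAT6, were higher where Stat6 was lower. Il4ra was at 2951 on the LPS array and 316 on the control array, 9.33-fold higher, and Il13ra1 at 749.8 and 98.7, with log2 ratios from 2.56 to 3.47 over 4 probe sets. Among the interferon receptor chains, Ifngr1 was at 541 on the LPS array and 1809.8 on the control array, 3.34-fold lower. Ifnar1, at 1395 and 699, lay just under 2-fold higher, and Ifngr2 and Ifnar2 had log2 ratios of 0.92 and 0.20. Of the 5 other scalings, all 5 put Ifnar1 past 2-fold higher, 3 put Ifngr2 there and 0 put Ifnar2 there. Il7r, a partner of the common gamma chain, was at 198 and 2266, 11.4-fold lower. The GM-CSF receptor chains Csf2ra and Csf2rb, which use JAK2, had log2 ratios of -0.06 and 0.14, and both signs depend on the scaling.

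Genes listed as targets of single STATs differed between the lists. Of all measured genes, 8.22% were past 2-fold on the higher side and 26.2% on the lower side. Of 22 measured genes that ISGF3 is known to induce, 21 were past 2-fold on the higher side and 0 on the lower side. The exception was Irf9, the partner of STAT2 in that complex, at 879 on the LPS array and 788 on the control array, a log2 ratio of 0.16. Isg20, an exonuclease gene, was at 3374 and 80.6, 41.9-fold higher. Of 17 measured STAT3 target genes, 14 were past 2-fold on the higher side and 0 on the lower side. Nfil3, a transcription factor that interleukin-10 induces, was at 1103 on the LPS array and 69.5 on the control array, a log2 ratio of 3.99, and Bcl3, an atypical IkB protein, had a log2 ratio of 2.69, while Gadd45a, at -0.48, ran against the list and turned positive under 1 of the 5 other scalings. Some genes stand in several of these lists. Many also respond to NF-kB or to other factors, so that membership does not assign a change to a STAT.

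The STAT5, STAT6 and STAT4 target lists were mixed. Their counts stand beside the same shares of all measured genes, 8.22% higher and 26.2% lower. Of 13 measured STAT5 targets, 4 were past 2-fold on the higher side and 2 on the lower side, around a median of 0.33. With median-centred ratios these counts were 6 and 1, around a median of 0.75, beside 13.1% and 15.3% of all measured genes. Ccnd2, a D-type cyclin gene, was at 5571 on the LPS array and 103 on the control array, 54.0-fold higher, with 7 probe sets from 4.44 to 6.36, and the kinase gene Pim1 was at 2934 and 383, 7.66-fold higher. Cish and Socs2, the feedback genes most used as STAT5 readouts, had log2 ratios of 0.76 and 0.33. Cish was past 2-fold higher under 4 of the 5 other scalings and Socs2 under 0 of them. Socs2 was dim, at 57.5 on the LPS array and 45.8 on the control array. Bcl2 was at 29.2 on the LPS array and 87.0 on the control array, 2.98-fold lower, but its other probe set was at 0.14.

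Of 12 measured STAT6 targets, 4 were past 2-fold on the higher side and 2 on the lower side, around a median of -0.08 that turns positive under 4 of the 5 other scalings. The chemokine genes Ccl22 and Ccl17 were at 2759 and 404 on the LPS array and under the floor on the control array (16.8 and 5.99). These are differences of at least 78.7-fold for Ccl22 and at least 11.5-fold for Ccl17. On the lower side, Pparg, a nuclear receptor gene, was at 19.9 on the LPS array, under the floor, and 264 on the control array, at least 9.89-fold lower. Clec10a, a lectin gene, was at 69.2 and 202, a log2 ratio of -1.54, and was past 2-fold under 3 of the 5 other scalings. Within 2-fold, Mrc1, the mannose receptor gene, was at 3302 and 6294, a log2 ratio of -0.93. Of 6 measured STAT4 targets, 1 was past 2-fold on the higher side, Gadd45g (149 and 48.2, 3.09-fold), and 1 on the lower side, Il12rb2 (30.9 and 62.9, 2.04-fold), which lay within 2-fold under all 5 other scalings.

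Inhibitors of the pathway were divided as well. Of 20 measured, 6 were past 2-fold on each side, around a median of 0.20. Among all measured genes the shares were 8.22% higher and 26.2% lower, so the lower count lies near the array-wide share. With median-centred ratios, 7 were past 2-fold on the higher side and 3 on the lower side, beside 13.1% and 15.3% of all measured genes. The higher ones were feedback genes and phosphatases: Usp18, which blocks the type I interferon receptor, was at 9077 on the LPS array and 328 on the control array, 27.7-fold higher, and Socs1 was at 760 and 5.33, under the floor, at least 21.7-fold higher. Socs3 had a log2 ratio of 6.48, and the phosphatase genes Ptpn1 and Ptpn2, whose products act on Janus kinases and STATs, had log2 ratios of 1.20 and 1.14 (another Ptpn1 probe set was at 0.19). The lower ones included Socs6 (299.6 on the LPS array and 1181 on the control array, 3.94-fold lower), Socs5 (135 and 408, a log2 ratio of -1.59) and the adaptor gene Sh2b3, which restrains JAK2 (165 and 581, -1.81).

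Partners and adaptors of the STATs mostly followed the array-wide shift. Of 13 measured, 1 was past 2-fold on each side, beside 8.22% higher and 26.2% lower among all measured genes. The list had a median of -0.57, and relative to the array-wide median it stood at -0.15. Nmi, a protein that binds several STATs, was at 2472 on the LPS array and 415 on the control array, 5.95-fold higher. The coactivator genes Crebbp and Ep300 had log2 ratios of -0.87 and -0.54. Stam, an adaptor bound by Janus kinases, was at 207 and 417, 2.02-fold lower, and lay within 2-fold under all 5 other scalings.

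**Figure D4:**
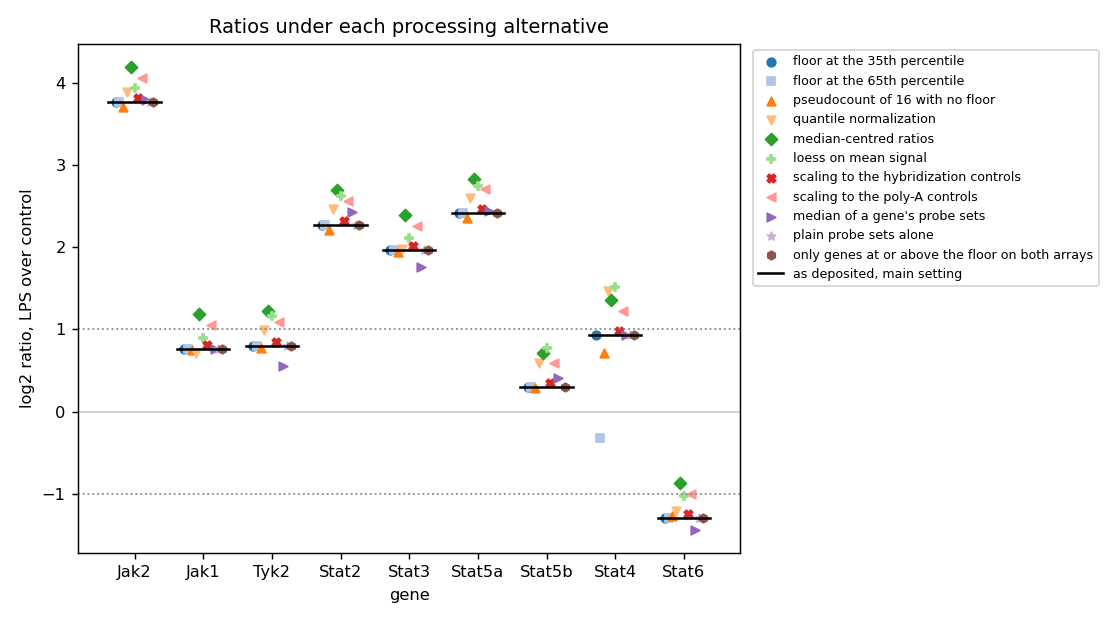
Log2 ratio (LPS over control) of the 9 genes as deposited (black bars) and under 11 processing alternatives (symbols), with 2-fold as dotted lines. Jak2, Stat2, Stat3 and Stat5a are above 2-fold higher under every alternative run for them, Stat4 is at -0.32, a lower bound, with the floors at the 65th percentile, and Stat6 is within 2-fold with median-centred ratios (-0.87).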

How the data were processed

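The authors deposited a linear MAS5 intensity for each probe set on each array, and the name MAS5 is credited to the submitters' processing notes. The sources used here do not give its version, scaling or detection calls. Arrays were grouped by their titles, and no column was left out (columns not used: 0). Of the 45037 probe sets that are not among the 64 array controls, 34945 have 1 gene in the platform annotation, 932 several and 9160 none listed, and only those with 1 gene were named. All 9 genes matched the RefSeq table (GRCm38.p6) with 0 symbols changed.

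A signal under its array's median (the 50th percentile, the floor) was set to that median, so that a fold against it is a lower bound. A gene's brightest probe set (highest mean log2 signal) had to reach the floor on at least 1 array. Log2 ratios are LPS minus control with no further scaling, and genes were counted at 2-fold, with no p-value. The ratio and centring steps were tested on simulated arrays with a set array-wide shift, built from genes at or above both floors. There, ratios with no further scaling kept that shift and median-centred ones did not. The floor step was not tested. Gene lists and members were chosen with earlier results of these data known. From each list up to 4 genes with the most extreme log2 ratios, and the 1 furthest against the list's median, were eligible for naming; other list genes are named for their role and were chosen after their values were seen. Alternatives were other floors (35th and 65th percentile), a pseudocount of 16, quantile, median, loess (span 0.4) and control-based scaling, other probe set choices and thresholds of 1.5-fold and 3-fold. The Stat5a and Stat5b windows were aligned locally with Biopython 1.88; other steps used Python 3.11.15, pandas 2.3.3 and statsmodels 0.14.6. Sequences are from RefSeq.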

Additional observations from a re-analysis of the deposited data

How the results depend on the processing

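The number of arrays, 1 per condition, limits the precision of every value. No paired analysis was possible because each condition has 1 array. The count of genes at least 2-fold higher was 4 of 9, beside 8.22% of all measured genes. It became 7 with median-centred ratios (13.1%), with scaling to the poly-A controls (11.005%) and at 1.5-fold (13.001%). It was 6 with loess (13.76%), 5 with quantile normalization (11.66%) and 3 of 7 with plain probe sets alone (8.09%). The count at least 2-fold lower, 1, beside 26.2% of all measured genes, became 0 with median-centred ratios (15.3%) and at 3-fold (12.2%). These shares moved with the setting too, so a change in a count cannot be read alone. The median log2 ratio of 0.93 became 1.47 with quantile normalization, 1.35 with median-centred ratios, 1.51 with loess and 1.22 with scaling to the poly-A controls. With plain probe sets alone Stat5a and Stat5b have no value. Of 97 alternative values for single genes, 71 lay within 0.28 of the deposited one and 25 were higher by more. The remaining 1, Stat4 at -0.32 with the floors at the 65th percentile, was lower, as a lower bound with its control signal under the floor. Scaling by the median or the poly-A controls subtracts a constant from every ratio (-0.42 and -0.29), beyond 0.28 in size. All values under both settings were therefore higher by construction. With other floors, genes at or above them keep the deposited value. The 71 and 25 thus reflect the settings chosen and do not measure how stable the genes are. Over the 11 alternatives Jak2 ranged from 3.70 to 4.19, Stat2 from 2.21 to 2.69, Stat3 from 1.76 to 2.39 and Stat6 from -1.43 to -0.87, and over the 10 that gave Stat5a a value it ranged from 2.35 to 2.83.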

Other observations

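Stat5b, Stat5a and Stat3 are consecutive protein-coding genes on chromosome 11 in the RefSeq table, and their log2 ratios (LPS over control) were 0.30, 2.41 and 1.97. The protein-coding gene next to Stat5b on the outer side, Ghdc, had signals of 128 on the LPS array and 193 on the control array, a log2 ratio of -0.60. The one next to Stat3, Cavin1, had 61.2 and 38.4, a log2 ratio of 0.67. As deposited, Stat5a and Stat3 thus lay past 2-fold, and Stat5b and both outer neighbours lay within it. Relative to the array-wide median of -0.42, Cavin1 was past 2-fold higher as well. The control signal of Cavin1 is close to the floor of 35.1.

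The genes nearest to each of the 9 in both log2 signals have like ratios and like probe set brightness, over only 2 arrays. Signals of different probe sets are not on a common scale, so genes with a like ratio but another brightness are left out. Jak2 was nearest to Fcgr4, an Fc receptor gene, at 4568 on the LPS array and 355 on the control array, and to Herc6, at 4812 and 369, an interferon-induced gene. Stat2 was nearest to Irak3 and Map3k8, regulators of Toll-like receptor signalling, with log2 ratios of 2.20 and 2.20. Stat3 was nearest to Irf1, an interferon regulatory factor gene, at 2949 and 772, and Pgap2, and Stat5a was nearest to Nfkbib, an IkB gene, at 1747 and 306, and Gramd1a. Stat6 was nearest to Galk2 and Cacul1, with log2 ratios of -1.30 and -1.24. Jak1 was nearest to Evl and Kif5b, Tyk2 to Fbxl5 and Etf1, Stat4 to Sim1 and Aloxe3, and Stat5b to Ubap1 and Med11.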
